A study of Mus musculus and Homo sapiens with 22 samples.

Results

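The genes described here are 10 regulators of heart transcription: Nkx2-5, Tbx5, Tbx20, Hand2, Mef2a, Mef2c, Mef2d, Myocd, Srf and Ppargc1a. They were taken by name from the 21866 coding genes of the annotation, and every listed site within a gene on its strand was taken. Their N6-methyladenosine (m6A) sites were read from 4 lists of mouse heart and from 1 list of mouse embryonic stem cells (mESCs). The heart lists come from purchased poly(A)+ RNA of mouse heart, with 1 library each for an input of 1 µg (1000 ng) and for inputs of 300, 100 and 50 ng, and neither the age nor the strain of the animals was given. The mESC list comes from wild-type (WT) cells grown with serum and LIF, a cytokine that keeps them undifferentiated, and joins 3 replicates. RNA-seq counts were available for 3 WT and 3 Mettl3 knockout (KO) mESC libraries of mESCs grown in the same way. In the KO cells, which came from an earlier study, the gene of the methyltransferase Mettl3 was disrupted. Whether the numbered RNA-seq samples were separate cultures was not stated, so that p-values measure the spread between these samples only.

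m6A is a methyl mark placed on adenosines of mRNA by a complex whose catalytic subunit is Mettl3. It is found mostly at the motif DRACH, where D is A, G or T, R is A or G, and H is A, C or T in DNA letters, and it is known to gather near stop codons, in 3' UTRs and in long exons. The mark is read by proteins that influence the splicing, translation and decay of the transcript. Nkx2-5, Tbx5, Tbx20 and Hand2 bind DNA and direct the formation of the heart. The MEF2 proteins and Srf bind muscle promoters, Myocd is a coactivator that Srf recruits, and Ppargc1a (PGC-1α) is a coactivator of mitochondrial genes.

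The sites were mapped by miCLIP2, in which an antibody against m6A is crosslinked to RNA and marks the modified base, and were predicted by the classifier m6Aboost. The windows of 21 nt on the transcript strand of GRCm38 that follow show the adenosine in the centre, with the 5 nt around it in capitals. They were chosen because they hold the highest-ranked site of a gene in the 1 µg heart list, a site shared with mESCs, or a site still found at 100 ng, and those of Hand2 are not shown. Each is named by its distance in nt from the last base of the stop codon in the longest coding transcript, with negative values upstream.
Nkx2-5 CDS -359 nt (chr17:26839371-26839391, minus strand): gcaggaccAGACTctggagct
Nkx2-5 CDS -94 nt (chr17:26839106-26839126, minus strand): aacttcgtGAACTttggcgtc
Nkx2-5 CDS -79 nt (chr17:26839091-26839111, minus strand): ggcgtcggGGACTtgaacacc
Tbx5 3' UTR 870 nt (chr5:119884347-119884367, plus strand): gcttcgatAAACTgaaagagc
Tbx20 5' UTR -1678 nt (chr9:24774176-24774196, minus strand): acctcctcGGACTtgggccac
Tbx20 5' UTR -1660 nt (chr9:24774158-24774178, minus strand): cactcagcGGACCcaaggagg
Tbx20 3' UTR 152 nt (chr9:24725290-24725310, minus strand): ggagagctGGACTcgcaaaac
Mef2a CDS -16 nt (chr7:67234874-67234894, minus strand): atgaggatGGACAcatgggtg
Mef2c CDS -78 nt (chr13:83662543-83662563, plus strand): cccccattGGACTcaccagac
Mef2d CDS -100 nt (chr3:88168246-88168266, plus strand): ggacggggGGACTttgggccc
Mef2d 3' UTR 440 nt (chr3:88169073-88169093, plus strand): cagatagtGGACTgaaaccca
Myocd CDS -1402 nt (chr11:65187408-65187428, minus strand): gatgggctAGACTctgagaag
Srf CDS -1409 nt (chr17:46555713-46555733, minus strand): cggcggcgGGACTcgcggggc
Srf 3' UTR 87 nt (chr17:46548986-46549006, minus strand): acacacacTGACTggccgaag
Srf 3' UTR 133 nt (chr17:46548940-46548960, minus strand): cagccacaGGACTatgccctc
Ppargc1a 3' UTR 397 nt (chr5:51457773-51457793, minus strand): acatgtgaGGACTtgggggca
The centre of the capitals is the A predicted to be methylated in each window. GGACT stood at 9 of these 16 sites, and the windows of Srf at 87 and 133 nt and of Mef2d at -100 and 440 nt are those shared between heart and mESCs.

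All 10 genes carried sites in the 1 µg heart list, against 37% of coding genes, and together they held 77 of its 46421 sites. Heart RNA levels were not measured here, and fewer cells with a transcript cannot be told apart from less RNA or less methylation per transcript. The genes differed widely in the number of sites. Myocd and Ppargc1a had 13 sites each, Tbx20 had 11, Tbx5 had 9, Mef2a had 8, Nkx2-5 and Hand2 had 6 each, Mef2c had 5, and Mef2d and Srf had 3 each. Among all 8094 coding genes with a site in this list, the median was 4 sites with quartiles of 2 and 7. Hence Mef2d and Srf lay below the middle of the genes with a site, and Myocd and Ppargc1a lay above 91.7% of them.

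**Figure D1:**
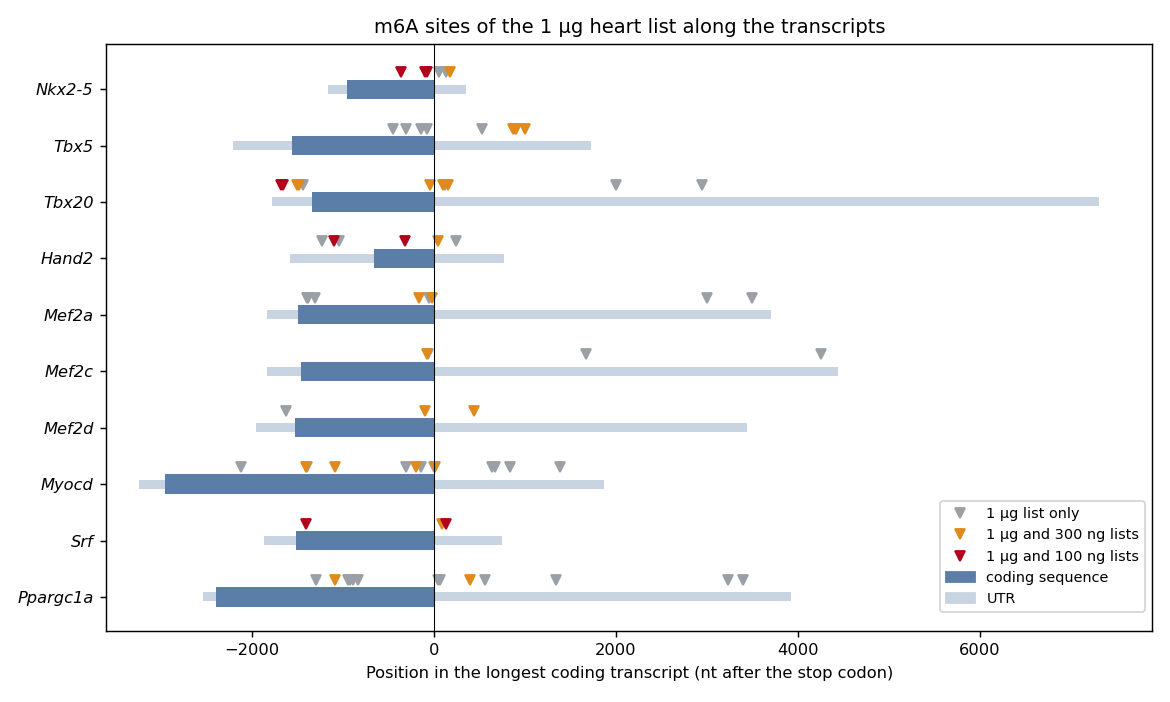
Sites of the 1 µg heart list along the longest coding transcript of each gene; the horizontal axis gives nt after the stop codon, thick bars the coding sequence, thin bars the UTRs, and triangles single sites coloured by the lowest input at which they were found. Sites stand on both sides of the stop codon in Nkx2-5 and in the 5' UTR in Tbx20 and Hand2, and those found at 100 ng belong to Nkx2-5, Tbx20, Hand2 and Srf.

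The map of sites along the transcripts shows that most sites lay in coding sequence and 3' UTRs. Of the 77 sites, 35 fell in 3' UTRs (45.5%, Wilson 95% interval 34.8 to 56.5%) and 32 in coding sequence (41.6%, 31.2 to 52.7%). Over all sites of the list that could be placed in a single coding gene, these shares were 46.8% and 47.0%, which are within the intervals of the 10 genes. The intervals cover counting error only. The 5' UTRs held 9 of the 77 sites (11.7%, 6.27 to 20.7%), against 1.91% of all sites. These 9 sites belonged to 3 genes, with 5 in Tbx20, 3 in Hand2 and 1 in Mef2d, and sites of 1 transcript are not independent of each other. Among all genes with a site, 6.36% had a site in the 5' UTR. The only intronic site, in Mef2c, falls in the 5' UTR of a shorter coding transcript.

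Nkx2-5 (ENSMUSG00000015579, chr17:26838664-26845009, minus strand) is a homeobox factor of early cardiac progenitors. Its transcript is short, with 1525 nt and 2 exons, and all 6 sites lay in the last exon, between -359 and 179 nt from the stop codon. They occupied 6 of its 21 DRACH motifs (28.6%), a share above that of 99.4% of genes with a site, where the median was 5% of motifs. The 2 sites at -94 and -79 nt ranked 335 and 596 of 46421 by score. Both remained at 100 ng, where the first of them ranked 56 of 1112.

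Tbx5 (chr5:119832668-119885219, plus strand), the T-box factor mutated in Holt-Oram syndrome, had 4 sites at the end of its coding sequence and 5 in the 3' UTR, all in the last exon of 2307 nt. Its 3' UTR sites at 870, 897, 902 and 1002 nt form a cluster with ranks of 785, 44784, 4256 and 7744. Thus neighbours only 5 nt apart stood near the bottom and near the top of the list. Of these 4, the sites at 870, 902 and 1002 nt were found again at 300 ng, and none of the 9 sites was found at 100 ng.

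Tbx20 (chr9:24718138-24774303, minus strand) is a T-box factor needed in adult cardiomyocytes. It carried 2 separate groups of sites. In the first exon, 5 sites spanned the 5' UTR from -340 to -96 nt relative to the start codon. Around the stop codon, 4 sites at -39, 106, 125 and 152 nt all had the motif GGACT and ranked 921, 2255, 1445 and 865. The remaining sites lay at 2002 and 2945 nt in a 3' UTR of 7314 nt. At 5.62%, its share of DRACH motifs with a site was close to the median of 5%.

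Hand2 (chr8:57320983-57324633, plus strand), a basic helix-loop-helix factor of the right ventricle, had 3 sites in the 5' UTR at -573, -443 and -383 nt from the start codon, 1 in the coding sequence and 2 in the 3' UTR. Of its 35 DRACH motifs, 17.1% held a site, which was above 94.3% of genes with a site. All 6 sites ranked in the upper 50% of the list. The sites 918 and 943 of the ranking stood side by side at the top of the gene, yet the former, in the 5' UTR, was absent at 300 ng and 100 ng, and the latter, in the coding sequence, was found at both.

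The 3 MEF2 genes, which encode MADS-box factors, differed from each other. Mef2a (chr7:67231163-67372858, minus strand) had 3 sites in its coding exon 4 and 3 at -157, -52 and -16 nt before the stop, all 3 of the latter at GGACA. The exon 4 sites ranked between 22202 and 38209, whereas those before the stop ranked 5348, 5611 and 1840. Mef2c (chr13:83504034-83667080, plus strand), a regulator of the anterior heart field, had 1 site in the upper 50% of the list, at -78 nt with rank 2541. The other 4 ranked between 26692 and 42983. Only 2.46% of its 122 DRACH motifs held a site. Mef2d (chr3:88142372-88172086, plus strand) had sites at -1622, -100 and 440 nt with ranks of 35580, 11843 and 10268, so that its best site stood at 22.1% of the list.

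Srf (chr17:46548329-46556175, minus strand), the serum response factor, had the highest-ranked site of all 77. This site at 133 nt ranked 322 of 46421, in the top 0.694%. Its other sites ranked 1895 at 87 nt in the 3' UTR and 5603 in the coding part of the first exon. Srf was the only gene of the 10 whose sites were all found again at 300 ng. Its partner Myocd (chr11:65176561-65269989, minus strand), by contrast, spread 13 sites over 3 exons, with 7 in the coding sequence and 6 in the 3' UTR, and ranks from 1832 to 45342. Myocd also held 3 of the 6 sites outside DRACH, and the others were in Tbx5, Tbx20 and Mef2c, with 1 each.

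Ppargc1a (chr5:51454250-51567726, minus strand) had 6 sites in exon 8 of its coding sequence, an internal exon of 916 nt, and 7 in the 3' UTR. All 13 lay in DRACH motifs. Their ranks ran from 3463 to 44705 with a median of 19058, and 2 of the 13 were found at 300 ng. Hence Myocd and Ppargc1a had equally many sites, but the median rank was 13321 in Myocd and 19058 in Ppargc1a. Without replicates of the heart lists, the difference could not be tested.

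In sequence and exon, most shares of these genes were within counting error of the whole list. The share of GGACT was above it when counting error alone was considered. A DRACH motif was present at 71 of 77 sites (92.2%, 84.0 to 96.4%), against 93.1% of all sites. The sites outside it read GTACT (2), GGACG (2), GTACA and ATACT. The most frequent pentamer was GGACT with 25 sites (32.5%, 23.1 to 43.5%), against 21.5% of all sites. Tbx20 held the most of these, followed by Hand2. The interval treats sites as independent, which sites of the same transcript are not. It also makes no allowance for picking the most frequent pentamer. A higher share across the genes as a set was therefore not shown. Of the 76 exonic sites, 51 lay in the last exon (67.1%, 55.9 to 76.6%), against 72.6% of all exonic sites, and 70 lay in exons of at least 400 nt (92.1%, 83.8 to 96.3%), against 94.4%. Within 200 nt of the stop codon lay 26 of them (34.2%, 24.5 to 45.4%), against 29.2%. Another site of the same transcript stood within 30 nt at 24 of the 76 (31.6%, 22.2 to 42.7%), against 25.3%. Because sequence and transcript region are inputs of the classifier, these shares describe the predicted sites and were not measured independently of the prediction.

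**Figure D2:**
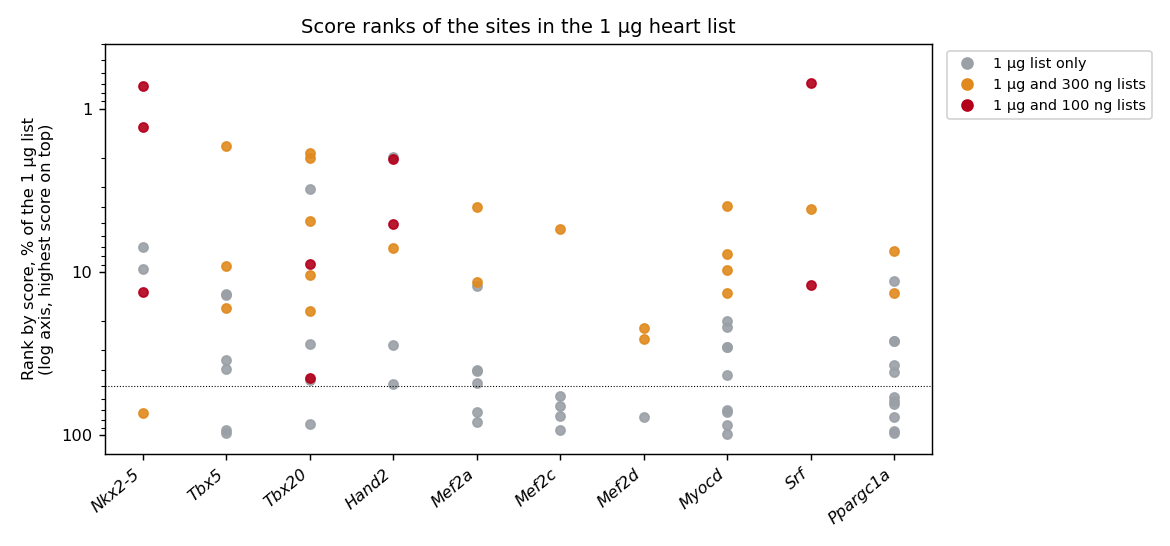
Rank of each of the 77 sites by score as a percentage of the 46421 sites of the 1 µg heart list, on a log axis with the highest scores on top; points are single sites, colours show the lowest input at which they were found and the dotted line marks the middle of the list. Only Srf and Nkx2-5 have a site in the top 1%, and the sites found at lower input are mostly high on the axis.

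Ranks by score placed these sites in the upper part of the list. The median rank was 11843, or 25.5% of the list, and 56 of the 77 sites (72.7%, 61.9 to 81.4%) stood in the upper 50%. The top 10% of the list held 23 of them (29.9%). By gene, the share in the upper 50% ran from 1 of 5 in Mef2c to 6 of 6 in Hand2 and 3 of 3 in Srf. The plot of ranks shows that each gene but Mef2d had a site in the top 10%, and that all but Hand2 and Srf also had a site in the lowest 30%.

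Next, the lists made from less RNA were searched for the same sites, to see how far the maps of these genes held at lower input. Sites of all 10 genes were found at 300 ng, against 15.3% of coding genes with a site there. At 100 ng, sites remained in 4 genes, namely Nkx2-5, Tbx20, Hand2 and Srf, against 3.04% of coding genes. At 50 ng there was none. Exact positions of the 1 µg list were found again at 300 ng for 30 of 77 sites (39.0%, 28.8 to 50.1%), against 17.8% of all sites. At 100 ng the shares were 9 of 77 (11.7%, 6.27 to 20.7%) and 2.30%. At 50 ng they were 0 of 77, with a Wilson upper limit of 4.75%, and 0.511%.

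The higher share at 300 ng went along with the higher ranks. In the upper 50% of scores, 29 of 56 sites of these genes (51.8%, 39.0 to 64.3%) were found at 300 ng, against 32.2% of all. In the lower 50%, 1 of 21 (4.76%, 0.846 to 22.7%) was found, against 3.4%. In the top 10% the shares were 19 of 23 (82.6%, 62.9 to 93.0%) and 73.4%. When all sites of the list were weighted to the ranks of the 77, in 10 bins of equal size, 34.1% were found at 300 ng, which lies within the interval of the observed 39.0%. The 30 sites found had a median rank of 3536, and the 47 not found had 20552.

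**Figure D3:**
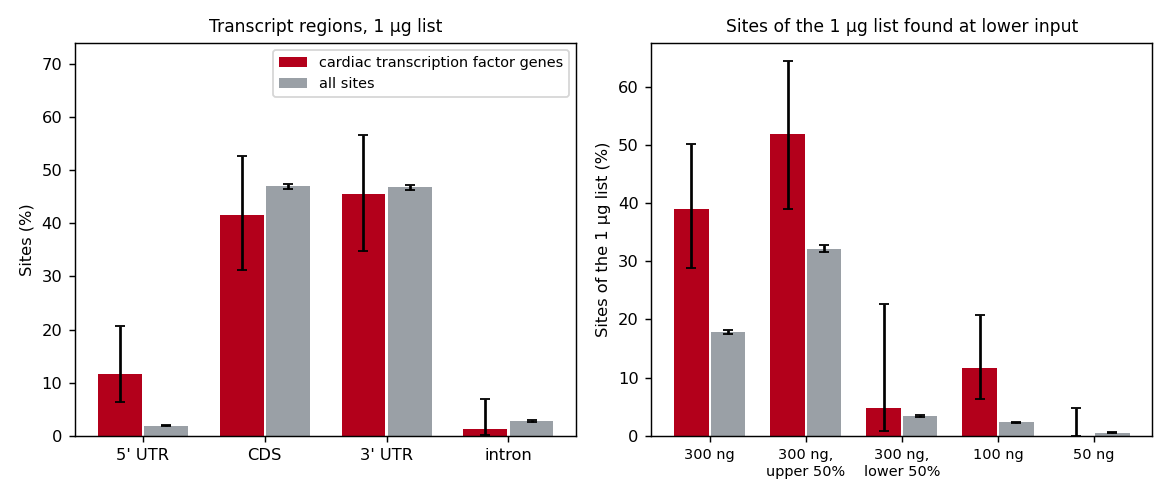
Shares of sites with Wilson 95% intervals as error bars, for the 10 cardiac transcription factor genes in red and all sites in grey; on the left by transcript region in the 1 µg heart list, on the right as the percentage of sites of the 1 µg list found at lower input, in all, and for 300 ng also for the upper and lower 50% of scores. The 5' UTR share is 11.7% against 1.91%, and the share found at 300 ng is 39.0% against 17.8%.

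By gene, the number of sites kept differed. Nkx2-5 kept 4 of 6 sites at 300 ng, among them the site at 179 nt, which ranked only 33694 at 1 µg. Tbx20 kept 6 of 11, Hand2 3 of 6, Myocd 4 of 13, Tbx5 3 of 9, Mef2a 2 of 8, Mef2d 2 of 3, Ppargc1a 2 of 13 and Mef2c 1 of 5. The 9 sites kept at 100 ng were 3 in Nkx2-5 and 2 each in Tbx20, Hand2 and Srf. A Tbx20 site in the 5' UTR at -322 nt from the start codon, with rank 20552, was listed at 100 ng but not at 300 ng. The single library per input gives no spread between replicates, and the lists give no read depth. The study reports a wide range of truncation events over the heart libraries. Input amount and sequencing depth therefore cannot be told apart in these shares.

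Conversely, nearly all sites of these genes at lower input were in the 1 µg list, with 30 of 32 at 300 ng (93.8%, 79.9 to 98.3%, against 93.4% of all) and 9 of 10 at 100 ng (90%, 59.6 to 98.2%, against 96.2%). The exceptions at 300 ng were a GGACG in Mef2d at -108 nt with rank 6282 of 8845, 8 nt from a site present in both lists, and a GGACT in Srf at 297 nt with rank 8008. At 100 ng the exception was a Tbx20 site at 2877 nt in the 3' UTR with the pentamer TGATA, which ranked 47 of 1112 although it was in neither larger list.

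In mESCs, only Mef2d and Srf had sites. Mef2d carried 3, at -121, -100 and 440 nt, with m6Aboost scores of 0.610, 0.835 and 0.911, in a list that holds scores from 0.5 to 1. Srf carried 2, at 87 and 133 nt, with scores of 0.764 and 0.934. Of these 5 sites, 4 were at the same base in the 1 µg heart list (80%, 37.6 to 96.4%), against 59.6% of all mESC sites. The exception was the lowest-scoring, the GGACC of Mef2d at -121 nt. In the other direction, 4 of 31 heart sites of the 5 genes tested in mESCs were in the mESC list (12.9%, 5.13 to 28.9%). Over the heart sites in all coding genes tested in mESCs, the share was 36.5%. Tbx20, Mef2a and Nkx2-5 held 11, 8 and 6 of the 31 sites and had none in the mESC list. Mef2d and Srf had 3 heart sites each, and 2 of each were shared. The interval treats sites of 1 transcript as independent, which they are not. The Srf site at 133 nt was the only site of the 10 genes found in mESCs and in heart at 1 µg, 300 ng and 100 ng.

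Mef2d and Srf also had the highest RNA levels of the 10 genes in mESCs. Levels per length, in CPM (read counts scaled to the library size) per kb of exon, were 12.7 ± 1.65 for Mef2d, 7.21 ± 1.06 for Srf, 1.15 ± 0.12 for Mef2a, 0.387 ± 0.0991 for Tbx20 and 0.219 ± 0.0719 for Nkx2-5 in WT (mean ± SD, n = 3). Tbx20 and Nkx2-5 were close, and the other neighbours in this order were further apart than their SDs. The median over the 13442 coding genes tested was 4.69. The genes were split by this level into 10 bins of equal size, and the share with an mESC site was 75.9% in the bin of Mef2d, 73.2% in that of Srf, 15.0% in that of Mef2a, 1.41% in that of Tbx20 and 0.298% in that of Nkx2-5, with 47.1% of tested coding genes overall. At these levels Mef2d and Srf, the genes with sites, stood in bins where most genes had sites. Tbx20 and Nkx2-5, without sites, stood where few had. The length covers all annotated exons of a gene, which for Mef2a is 14681 nt against 5538 nt in its longest coding transcript. For Srf the lengths are 2893 and 2616 nt. Before division by length, Mef2a was at 16.9 ± 1.76 CPM in WT and Srf at 20.9 ± 3.06. The bin of Mef2a therefore rests on the length used, and the shorter length could place it where more genes had sites. The remaining 5 genes were hardly detected.

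The RNA-seq libraries were compared to ask how the RNA of these genes differs without Mettl3. Gene counts lay between 22746733 and 27254245 per library. The targeted gene itself was still counted in the KO at 18.4, 22.6 and 16.9 CPM, against 26.4, 26.6 and 28.9 in WT. Its ranges did not overlap, with a log2 fold change of -0.50 ± 0.14 (SE) and an adjusted p of 0.0134 by the quasi-likelihood test of edgeR, adjusted over all genes tested after Benjamini and Hochberg. This misses the threshold of 0.01. Gene counts do not show whether the remaining transcript encodes the protein.

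Of all 15731 genes tested, 29.7% passed the threshold, 17.1% higher and 12.6% lower in the KO. Of the 10 genes, 5 had enough counts for the test, and none of the 5 passed in either direction. By the same edgeR test, 2 of the 5 had an unadjusted p under 0.05, namely Tbx20 and Mef2a, and DESeq2 also called 0. No label states that same-numbered WT and KO libraries are paired. With the replicate number as a block, 1 of the 5 was called, Tbx20, against 43.5% of all genes tested in that fit (20% lower in the KO). That call rests on the assumed pairing.

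Tbx20 was counted at 4.11, 3.81 and 6.00 CPM in WT and at 2.47, 2.67 and 2.99 CPM in the KO. The KO libraries were all lower than the WT libraries, which was the case in either direction for 56.1% of genes tested. The log2 fold change was -0.77 ± 0.25 with an adjusted p of 0.0277 (edgeR, Benjamini-Hochberg), and -0.75 with an adjusted p of 0.00832 with the replicate block. Without WT replicate 3, the highest library, it was -0.54 with an adjusted p of 0.0720.

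Mef2a was counted at 15.9, 18.9 and 15.8 CPM in WT and at 19.9, 24.6 and 21.4 CPM in the KO. Here the ranges did not overlap either, with the KO higher. The log2 fold change was 0.38 ± 0.14 with an adjusted p of 0.0447 (edgeR), and 0.0139 with the block. Both genes were without sites in the mESC list.

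For the 2 genes with mESC sites, the ranges of WT and KO overlapped. Mef2d had 79.7, 83.1 and 64.5 CPM in WT and 77.8, 86.5 and 69.4 CPM in the KO. Its log2 fold change was 0.04 ± 0.13 with an adjusted p of 0.817 (edgeR). Srf had 21.3, 17.6 and 23.7 CPM in WT and 27.5, 24.3 and 22.9 CPM in the KO, with 0.26 ± 0.14 and an adjusted p of 0.166. Nkx2-5 had 10, 11 and 5 reads in WT and 14, 17 and 15 in the KO, near the limit of the filter, with 0.57 ± 0.37 and an adjusted p of 0.229. In CPM its KO libraries were all above WT.

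**Figure D4:**
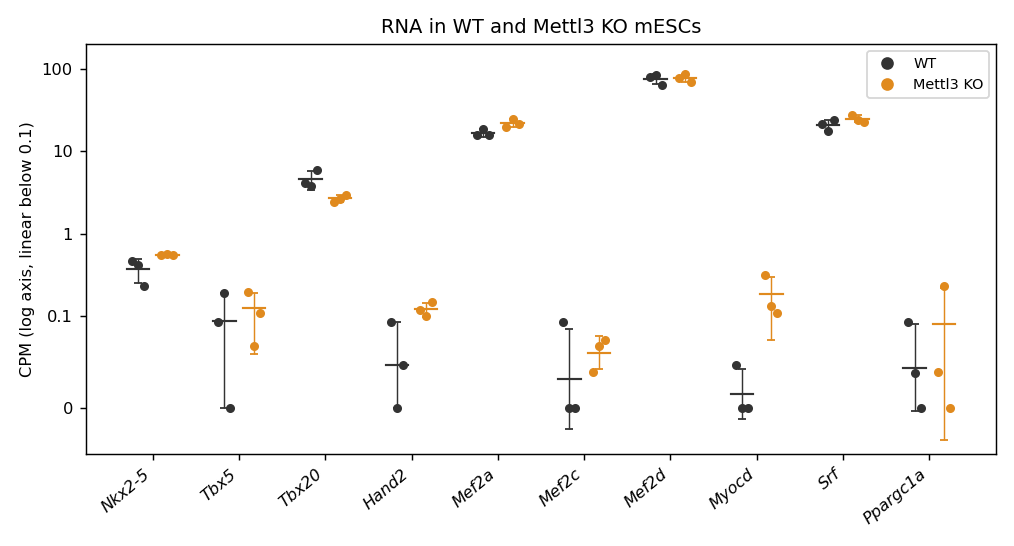
CPM of the 10 genes in each mESC library, on an axis that is logarithmic above 0.1 and linear below; points are libraries, horizontal lines the means and bars the SD (n = 3). The 3 KO libraries lie below WT for Tbx20 and above WT for Mef2a, while Tbx5, Hand2, Mef2c, Myocd and Ppargc1a stay at or below 0.318 CPM in each library.

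The other 5 genes, Tbx5, Hand2, Mef2c, Myocd and Ppargc1a, did not pass the filter. Their reads in WT replicates 1 to 3 and KO replicates 1 to 3 never exceeded 8 in a library, as the plot of levels shows. Myocd had 1, 0 and 0 reads in WT and 8, 4 and 3 in the KO. The ratio of 12.6 between the summed levels has an exact 95% interval of 1.93 to 529, for counting error alone. In a fit with no filter on low counts its adjusted p was 0.0169 by edgeR, which misses the threshold. Tbx5 had 7 reads in WT and 10 in the KO in all, Hand2 had 3 and 10, Mef2c had 2 and 5, and Ppargc1a had 3 and 8, each with an interval of the ratio that includes equality.

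The identity of the cells was checked on marker lists. All 6 pluripotency markers were tested in mESCs, at summed levels of 3087 to 3602 CPM in WT and 2572 to 2717 CPM in the KO, and 1 of them, Tdgf1, fell. The 10 cardiomyocyte markers summed to 58.6 to 108 CPM in WT and 187 to 228 CPM in the KO. The higher sum is that of Ttn alone, since the other 9 summed to 23.01 to 27.30 CPM in WT and 19.03 to 20.10 CPM in the KO. Of the 6 that were tested, Ttn rose and Myl7 fell at the threshold, and Actc1, Pln and Nppa were at 0 in all 6 libraries. The calls among both marker lists are too few to set apart from the 17.1% higher and 12.6% lower of all genes tested. The part of these shifts in the values of the 10 genes was not tested. In the 1 µg heart list, 6 of the 10 cardiomyocyte markers had sites, led by Ttn, the giant sarcomere protein, with 196.

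Genes of the same pathways were then counted. Of 25 other cardiac transcription factors, 20 had sites in the 1 µg heart list and 12 at 300 ng, against 37% and 15.3% of coding genes. In mESCs 5 of the 25 had sites, beside 47.1% of the coding genes tested there. In the KO, 3 of 16 tested rose and 2 fell, a share near the 17.1% and 12.6% of all genes tested, with a median log2 fold change of -0.12, beside -0.02 over all genes tested. The homeobox factor Meis2 rose from 3.69 ± 1.28 to 11.4 ± 3.00 CPM and the forkhead factor Foxp1 from 36.7 ± 0.186 to 58.9 ± 5.45 CPM (adjusted p = 0.00133 and 0.000648 by edgeR, as for the genes that follow).

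Of 14 cofactors and repressors of SRF and MEF2, 13 had sites in the 1 µg heart list and 6 in mESCs, against 37% of coding genes and 47.1% of those tested in mESCs. Among the 13 tested, 2 rose and 2 fell, again beside 17.1% and 12.6% of all genes, with a median log2 fold change of 0.02. The MEF2 repressor Hdac5 fell from 53.0 ± 3.47 to 35.5 ± 3.85 CPM (adjusted p = 0.00274), and the SRF partner Elk4 from 21.7 ± 1.28 to 13.9 ± 1.18 CPM (adjusted p = 0.00289). The 2 that rose, another MEF2 repressor among them, had means under 100 counts and are not named. Of 14 partners and relatives of PGC-1, all 14 had sites in heart and 9 in mESCs, beside the same shares of coding genes. Among the 10 tested, 2 rose and none fell, with a median of 0.39, and the share called was below the 29.7% of all genes. They were the nuclear receptor Rxra, from 16.6 ± 2.14 to 34.1 ± 8.53 CPM, and the corepressor Nrip1, from 29.5 ± 1.54 to 46.6 ± 3.77 CPM (adjusted p = 0.00125 and 0.000970). The 4 paralogs Mef2b, Tbx4, Nkx2-6 and Nkx2-3 had no site in any list used here. Of these, Mef2b, the MEF2 gene outside the 10, fell from 21.3 ± 7.46 to 5.56 ± 1.49 CPM (adjusted p = 0.000370).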

How the data were processed

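Values were used as deposited, and no reads were mapped again. The RNA-seq counts are whole reads per gene, which the authors mapped to GRCm38.p6 with STAR and counted on the reverse strand with htseq-count and GENCODE M23. Lines that name no gene made up 36.7 to 42.7% of all reads and were left out. For the site lists, the authors mapped miCLIP2 reads with STAR, removed duplicates with UMI-tools, called peaks with PureCLIP and predicted m6A with m6Aboost. The prediction score deposited with the mESC list is a fraction between 0.5 and 1. The scale of the score deposited with the heart lists was not given in the sources used here, and it served only to rank sites within a list. The 3 lower heart inputs (50, 100 and 300) carry the unit µg in the sample titles, while file names and the study's methods give ng, which was used. Human sites and the other miCLIP2 samples were not used here.

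Sites were assigned to genes by position and strand and placed in the longest coding transcript of GENCODE M21, which is earlier than the release the authors used. Sequences were read from the RefSeq GRCm38.p6 assembly. Sites were shared between lists when base and strand were the same. Shares over all sites of the list by region use sites within a single coding gene. Intervals are Wilson intervals at 95%.

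Genes were tested with edgeR 4.0.16 in R 4.3.3 (filterByExpr, TMM factors, glmQLFit, glmQLFTest) with Benjamini-Hochberg adjustment over 15731 genes and a threshold of 0.01. The test was checked on simulated data with known changes, in far fewer genes than were called here and without pairing. The check does not cover changes as small as those of the cardiac genes tested. Deviations from the group means of same-numbered WT and KO samples correlated at 0.122, 0.464 and 0.303 across genes. For WT and KO samples of unlike numbers the correlations lay between -0.342 and 0.110. The numbers were taken to pair the samples in the block, although no label states it and replicate 1 was little set apart. CPM use TMM factors. Alternatives were DESeq2 1.42.0, other scalings and filters, a threshold of 0.05, the replicate block, leaving out each replicate, other transcripts, motifs and distances, and the upper 50% of scores. The genes, gene lists and marker lists were chosen with earlier results of these data known. Named are the 10 genes, Mettl3, and up to 3 called genes of each pathway list with the largest fold change, a mean of at least 100 counts and groups that do not overlap. A gene that this rule names is not reported here. The marker genes named were picked after their values were seen. Sites were handled in Python 3.11.15 with pandas 2.3.3 and SciPy 1.17.1.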

Additional observations from a re-analysis of the deposited data

How the results depend on the processing

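For all genes, 4669 passed an adjusted p of 0.01 by edgeR, 2687 of them higher in the KO, 7336 passed 0.05, and 6837 passed 0.01 with the replicate block, 3694 of them higher. Scaling by library size alone called 4136, of which 2937 were higher, and its median log2 fold change over the genes tested was 0.08 in place of -0.02. Leaving out single replicates gave 2761 to 5412, the lowest without KO replicate 1, with 3108 without WT replicate 1 and 3109 without KO replicate 3. Of the 5 cardiac genes tested, 0 passed 0.01, 2 passed 0.05 and 1, Tbx20, passed with the replicate block. The number was 0 under each left-out replicate. The block changed no other call among them. The adjusted p of Tbx20 ran from 0.00832 to 0.0974 and that of Mef2a from 0.0139 to 0.141 over the alternatives, with the directions kept. The log2 fold change of Mef2d lay between -0.06 and 0.13 when a replicate was left out and changed sign without WT replicate 3 (-0.063) and without KO replicate 2 (-0.035). For sites, the share found at 300 ng was 51.8% in the upper 50% of scores, the share at the stricter motif RRACH (R for A or G in the first place) was 81.8%, and 100% of the 4 higher-scoring mESC sites were in the heart list. The number of sites stayed at 77 when only exons of 1 gene were used and was 56 in the upper 50% of scores. Their share in 3' UTRs was 48.1% with any coding transcript and 42.9% in the upper 50% of scores. Both lie within the interval of the main share, 34.8 to 56.5%. The heart lists have 1 library per input and hold no depth for a site, so that a site missing from a list was not detected there and is not shown to be absent.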

Other observations

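The heart lists also held marker genes of other cell types of the tissue. In the 1 µg list, sites lay in all 7 fibroblast markers, in 4 of 5 endothelial markers and in 3 of 4 smooth muscle markers, with 40, 44 and 7 sites. Skeletal muscle markers had sites in 1 of 5 genes, and erythroid and leukocyte markers in 1 of 4, with 1 site each. Of the 6 pluripotency markers, 1 had sites in heart and all 6 had sites in mESCs, with 47 in all. The 1 with heart sites, Esrrb, is also counted among the relatives of PGC-1. In the KO mESCs, 1 of 3 fibroblast markers tested and 2 of 5 endothelial markers tested were higher at an adjusted p of 0.01 by edgeR, numbers too small to set apart from the 17.1% of all genes tested, and none of the smooth muscle, skeletal muscle or blood markers tested passed. Summed levels in WT and KO lay between 4.16 and 6.18 and between 9.75 and 10.1 CPM for fibroblast markers, and between 140.2 and 185 and between 149 and 214 CPM for endothelial markers. Most of the endothelial sums was Pecam1, at 147 ± 22.2 CPM in WT and 144 ± 30.7 CPM in the KO, so that they say little of the other markers.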
